A study of Mus musculus with 10 samples.

Results

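The ephrin, Eph receptor, semaphorin, plexin and neuropilin genes are the ligands and receptors of 2 guidance systems through which neighbouring cells attract or repel each other. They were taken here as all probe sets whose platform annotation gives a single symbol of an ephrin (Efna, Efnb), an Eph receptor (Epha, Ephb), a semaphorin of classes 3 to 7, a plexin (Plxna to Plxnd) or a neuropilin (Nrp1, Nrp2). The rule reads symbols alone, but these families were picked with earlier results of these data known. That gave 124 of 45037 probe sets, or 53 of 18193 named genes, of which 52 are protein-coding and 1, Plxna4os1, is an RNA antisense to a plexin gene. The mouse keratinocytes compared were RhoA-KO cells (RhoA fl/fl K5 cre) and cells titled Wildtype (RhoA fl/+ K5 cre), either grown as primary cultures (3 arrays of each genotype) or freshly isolated from epidermis (2 arrays of each). Both genotypes thus carry the K5-driven Cre, whose promoter works in basal keratinocytes, and the cells called wildtype have 1 floxed RhoA allele. The samples are titled biological replicates, but no animal or culture is named, and a p-value here speaks of the spread among these samples alone.

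Eph receptors are receptor tyrosine kinases that bind ephrins on a touching cell: ephrin-A ligands are held to the membrane by a lipid anchor, while ephrin-B ligands span it and signal back into their own cell. Semaphorins signal through plexins, and most secreted class 3 semaphorins need a neuropilin as co-receptor. Both systems reshape the actin cytoskeleton through small GTPases, RhoA among them. In epidermis Eph receptors and ephrins are known for roles in keratinocyte compaction, differentiation and hair follicle spacing.

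Levels are linear array intensities as the authors deposited them, and log2 changes are RhoA-KO minus wildtype. Fresh and cultured arrays are on different scales: the median intensity was 7.75 to 8 on the 6 cultured arrays, where 53.9% to 54.3% of probe sets lay below 10, and 64.1 to 64.8 on the 4 fresh arrays. Intensities are therefore compared only within a condition and between arrays for the same gene, and cultured values of about 10 or less are near the floor. The keratin genes Krt5 and Krt14, which define basal keratinocytes, lay above the 99th percentile on all 10 arrays. Rhoa averaged 7892 ± 294 in cultured RhoA-KO and 10123 ± 1027 in cultured wildtype cells (SD, n = 3 each; limma adjusted p = 0.156), and 4347 ± 72.2 in fresh RhoA-KO and 3793 ± 377 in fresh wildtype cells (SD, n = 2 each; limma adjusted p = 0.434), with the place of its probe sets relative to the deleted part unknown here. Fresh RhoA-KO replicate 2 stood apart: 19 hair follicle markers summed to 50500 there, against 7213.5 on fresh RhoA-KO replicate 1 and 8334 to 9344 on the fresh wildtype arrays, so the fresh changes were also computed without it. In bulk RNA such as this, fewer cells of a type and less RNA per cell cannot be told apart.

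The guidance genes were spread over the whole range of each array. A gene with several probe sets (36 of the 53) is represented by its brightest one (mean log2 intensity of all arrays), and a probe set was tested in a condition where at least 2 arrays read it above their medians. By that filter 31 members were tested in cultured cells and 40 in fresh cells, 29 of them in both. The 2 tested in cultured cells alone were Nrp1 and Plxnb3, and 11 were tested in fresh cells alone: Efnb3, Ephb1, Plxna3, Plxna4, Plxnc1, Plxnd1, Sema4c, Sema4f, Sema4g, Sema6a and Sema6c. The 11 tested in neither condition were Epha3, Epha5, Epha6, Epha7, Epha8, Epha10, Sema3a, Sema3b, Sema3g, Sema5b and Plxna4os1.

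Sema3c, a secreted semaphorin, was at the 98.8th to 99.3rd percentile of the cultured arrays and at the 97.6th to 98.5th of the fresh arrays, within the top 10% of probe sets on all 10 arrays. Another class 3 gene, Sema3d, lay at the 94.6th to 97.4th percentile of the fresh arrays and only at the 51.6th to 56.7th of the cultured arrays. Sema4c, which encodes a membrane-bound ligand of plexin-B2, was at the 81.7th to 85.5th percentile of fresh arrays, while on all cultured arrays it was among the lowest readings, at the 0.689th to 0.708th percentile (3.25 to 3.29). Plxna3, a plexin-A receptor gene, had a like pattern, with the 82.6th to 84.1st percentile in fresh cells and the 6.19th to 14.0th in cultured cells. Its other probe set differed less, with the 62.3rd to 63.2nd percentile in fresh cells and the 48.9th to 52.8th in cultured cells. In the other direction, Nrp1 lay at the 65.1st to 75.5th percentile of the cultured arrays and at the 24.8th to 44.1st of the fresh arrays. In total 9 members were in the top 10% on every fresh array (of 2628 genes) and 1, Sema3c, on every cultured array (of 2426 genes). These percentiles compare 1 probe set with the rest of its array, and probe sets differ in how strongly they bind, so they do not rank the genes by transcript number. On the cultured arrays 53.9% to 54.3% of probe sets lay below 10, so low percentiles there only order readings near the floor. A gap between the percentiles of the 2 conditions is therefore no measure of a change in level.

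**Figure D1:**
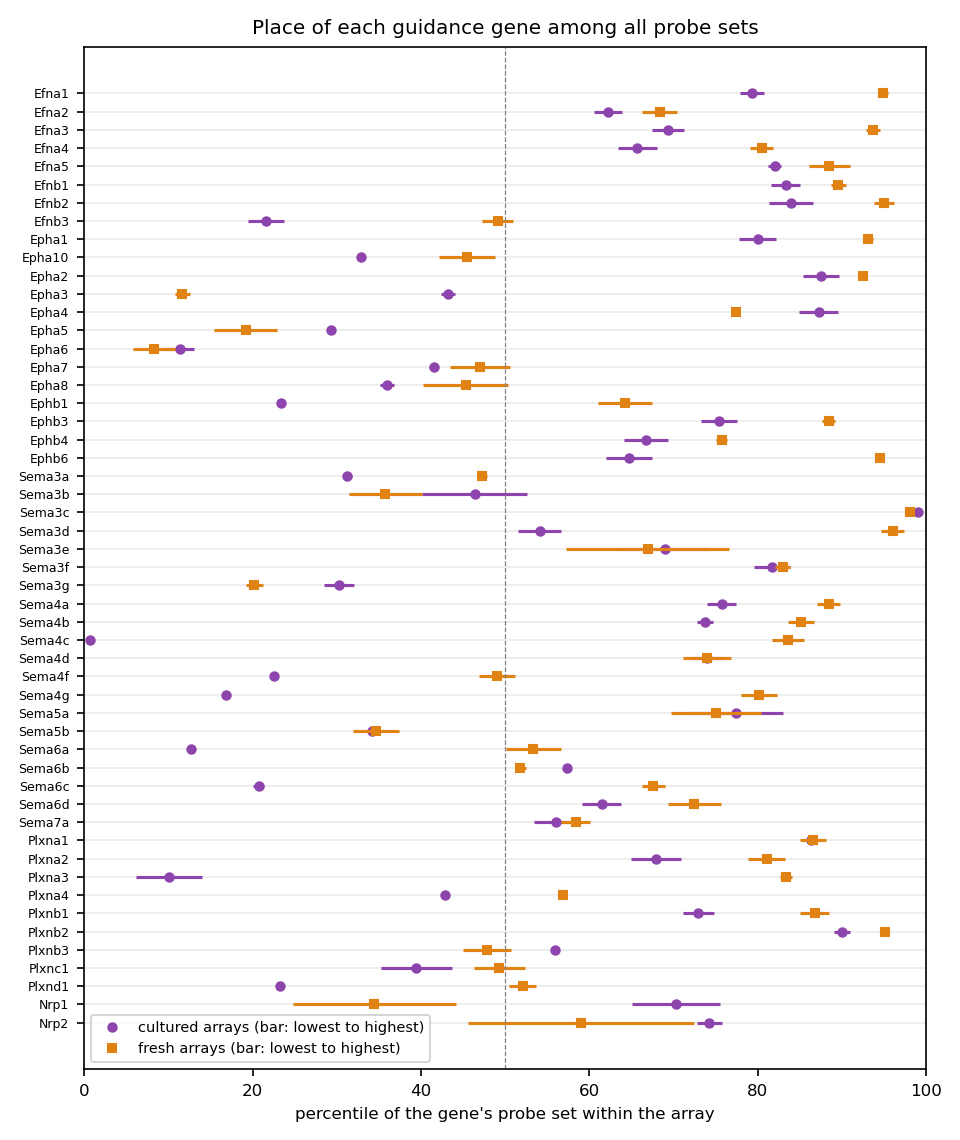
Percentile of each gene's representative probe set among all 45037 probe sets of an array (x axis, 0 to 100), for the 52 protein-coding members; circles mark cultured arrays, squares fresh arrays, at the middle of the range, and bars span the lowest to the highest array. Sema3c lies near the right edge in both conditions, while Sema4c, Sema4g and Plxna3 lie far to the left in cultured cells and to the right of 75 in fresh cells.

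No guidance gene passed the threshold of an adjusted p of 0.05 in limma's 2-sided test with Benjamini-Hochberg adjustment over all probe sets tested. The count was 0 of 31 in cultured cells, where 0.3% of all 10994 genes tested were called, and 0 of 40 in fresh cells, where 0% of 11250 were called. At an unadjusted p under 0.05, 8 of 31 members (25.8%) were lower in cultured RhoA-KO cells, against 9.73% of all genes: Sema3c, Sema3d, Sema3e, Sema3f, Sema4d, Sema5a, Sema7a and Plxnb1. Only Sema6d (3.23%) was higher by that measure, against 8.05% of all genes. These counts take the representative probe sets. Over all 64 tested probe sets of members in culture, 16 were lower and 2 higher. The second higher one was of Efnb1 (log2 change 0.37, limma adjusted p = 0.254), whose representative was at 0.21. In fresh cells 7 of 40 members (17.5%) were lower in RhoA-KO cells, against 7.75% of all genes: Sema3c, Sema3d, Sema3e, Sema5a, Plxna2, Efna5 and Efnb2. The single one higher, Ephb1 (2.5%), compares with 7.64% of all genes. Single arrays moved the counts of lower members: the 8 in culture became 4 without wildtype replicate 3 and 5 without any 1 of the RhoA-KO arrays, and the 7 in fresh cells became 1 without wildtype replicate 2.

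Counted by groups that do not overlap, 7 of 31 members (22.6%) were lower on all 3 cultured RhoA-KO arrays, against 13.5% of all genes, and 2 (6.45%), Efna1 and Sema6d, were higher, against 11.2%. In fresh cells, with 2 arrays a group, 11 of 40 (27.5%) were lower and 5 (12.5%) higher without overlap, against 24.7% and 27.6% of all genes. The share of lower members there was thus near that of all genes. Among the 5 higher, Efnb3 and Nrp2 passed the filter through the RhoA-KO arrays alone. For them the filter itself favoured a higher reading without overlap, so they are no evidence of a change. The median log2 change of the tested members was -0.10 in cultured cells and -0.04 in fresh cells, beside -0.0072 and 0.011 for all genes tested. Without fresh RhoA-KO replicate 2, 37 members passed the filter in fresh cells, with 5 lower and 1 higher at an unadjusted p under 0.05.

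Leaving out that array turned the direction of 10 of these 37 members: Efna2, Efna3, Efnb1, Plxna1, Plxna3, Plxnb1, Plxnb2, Plxnc1, Plxnd1 and Sema4d. The other 27 kept theirs. Of the semaphorins, Sema3c was at a fresh log2 change of -0.34 without it, Sema3d at -0.39, Sema3f at -0.13 and Sema4c at 0.36. Of the receptors, Plxna2 was at -0.30, Epha1 at 0.23, Ephb1 at 0.40 and Ephb3 at -0.19. Changes that shrank by more than 1.5 times without turning included those of Sema4b, which was at -0.11, and Efna1, at -0.01.

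**Figure D2:**
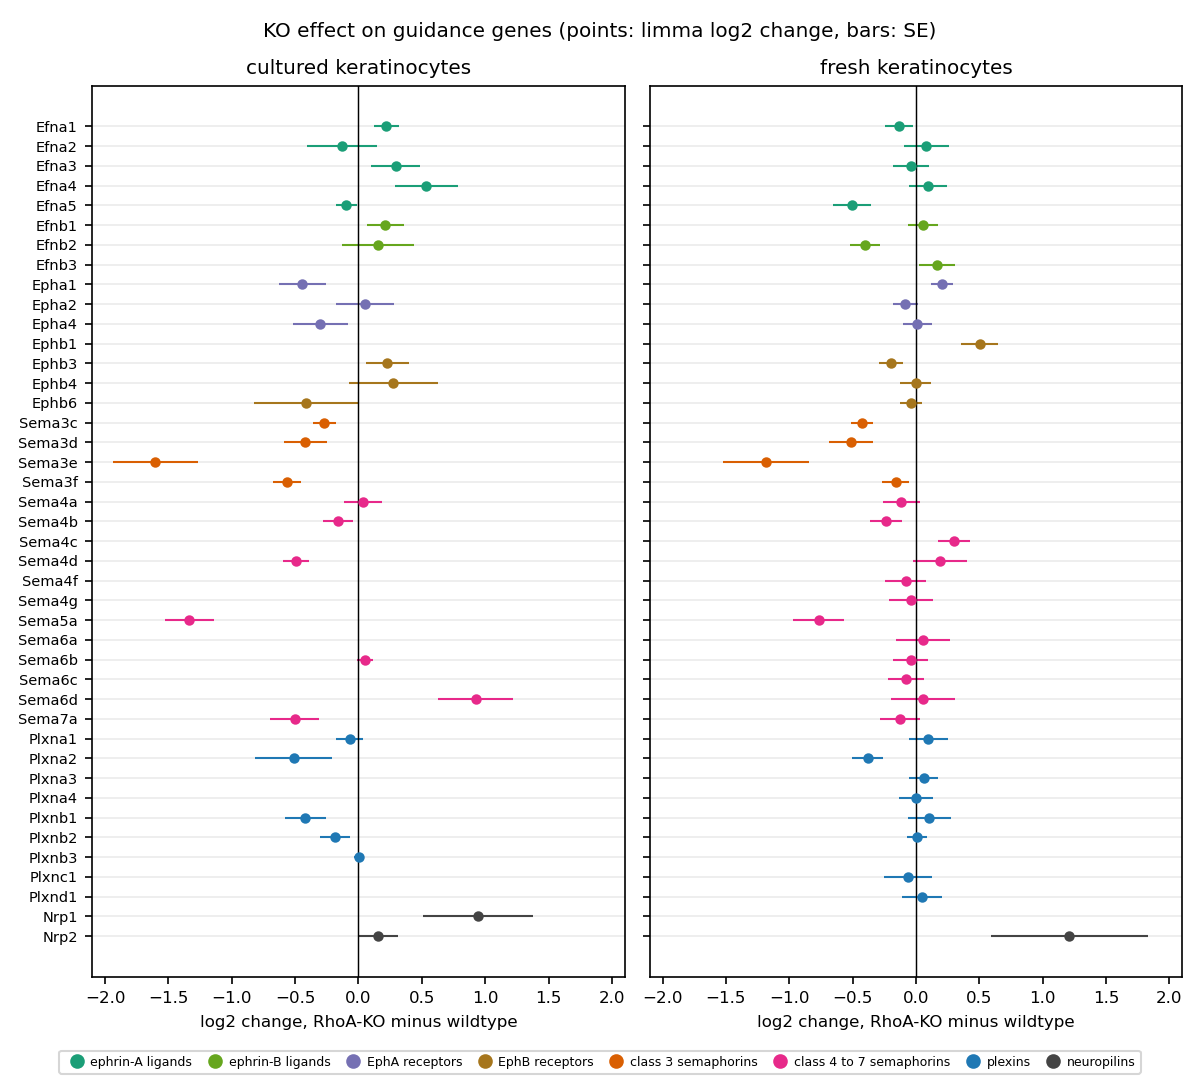
Log2 change (RhoA-KO minus wildtype, x axis) of each tested guidance gene in cultured cells (left, 31 genes) and fresh cells (right, 40 genes), with limma's standard error as bars and colour by family. Sema3e and Sema5a lie farthest to the left in both panels; Nrp1 and Sema6d lie to the right in cultured cells and Nrp2 in fresh cells, with long bars for both neuropilins.

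The class 3 semaphorins, the secreted repellents and attractants of the family, were lower in RhoA-KO cells for all 4 genes tested, in both conditions, with a median log2 change of -0.49 in cultured and -0.47 in fresh cells. None of the 4 passed the threshold alone. The other 3 (Sema3a, Sema3b and Sema3g) did not pass the filter in either condition.

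Sema3e, whose product binds plexin-D1 without a neuropilin, had the most negative log2 change of the representative probe sets in both conditions. In cultured cells it read 72.4, 78.9 and 61.9 on the RhoA-KO arrays, against 127, 288 and 271 on the wildtype arrays (71.1 ± 8.59 and 228 ± 88.2, SD, n = 3 each; log2 change -1.60, SE 0.34, limma adjusted p = 0.132). Every RhoA-KO array was below every wildtype array, and wildtype replicate 1 was the lowest of its group. Without that array the log2 change was -1.98 and passed the threshold (limma adjusted p = 0.0421, within 0.0421 to 0.383 over its alternatives). In fresh cells Sema3e read 168 and 93.8 in RhoA-KO, against 232 and 352 in wildtype (log2 change -1.18, SE 0.34, limma adjusted p = 0.317), again with no overlap. Without fresh RhoA-KO replicate 2 the change was -0.76 (limma adjusted p = 0.380), and without replicate 1 it was -1.61 (limma adjusted p = 0.0320, within 0.0320 to 0.985 over its alternatives). All 4 of its probe sets were lower in RhoA-KO cells in both conditions, with log2 changes from -1.60 to -1.26 in cultured and from -1.60 to -0.74 in fresh cells.

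Sema3c read 21350.1, 24643 and 26489.5 in cultured RhoA-KO cells, against 27573, 28631 and 30964 in wildtype cells (log2 change -0.27, SE 0.09, limma adjusted p = 0.256). In fresh cells it read 4134 and 3681 in RhoA-KO, against 5150.3 and 5326 in wildtype (3908 ± 320.4 and 5238 ± 124, SD, n = 2 each; log2 change -0.42, SE 0.08). That was the smallest p of any member in fresh cells (unadjusted p = 0.0033, limma adjusted p = 0.276). On this probe set the groups did not overlap in either condition. The second probe set of the gene was also lower in RhoA-KO in each, but less so and with overlapping groups (log2 change -0.19 in cultured and -0.16 in fresh cells).

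Sema3d read 2280 and 1916 in fresh RhoA-KO cells, against 2551 and 3492 in fresh wildtype cells (log2 change -0.51, SE 0.17, limma adjusted p = 0.346), with no overlap. Each wildtype array moved that value: it was -0.29 without wildtype replicate 2 and -0.74 without replicate 1. In cultured cells it was near the floor, at 8.74, 8.44 and 8.49 in RhoA-KO, against 13.4, 8.7 and 12.8 in wildtype, where wildtype replicate 2 reached down to the RhoA-KO readings (log2 change -0.42, limma adjusted p = 0.313). A change between such values depends on where the floor was put.

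Sema3f, which signals through neuropilin-2, read 540.2, 611 and 687 in cultured RhoA-KO cells, against 895, 878 and 932 in cultured wildtype cells (613 ± 73.4 and 902 ± 27.4, SD, n = 3 each; log2 change -0.56, SE 0.11, limma adjusted p = 0.113). All RhoA-KO arrays were below all wildtype arrays. In fresh cells the readings were closer, at 553 and 531 in RhoA-KO, against 619 and 592 in wildtype (log2 change -0.16, SE 0.11, limma adjusted p = 0.570). Its 3 probe sets were all lower in cultured RhoA-KO cells, at log2 changes from -0.56 to -0.13, and in fresh cells 1 was lower and 2 were near 0.

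Outside class 3, Sema5a, which encodes a transmembrane semaphorin with thrombospondin repeats, had the smallest p of all members in cultured cells. It read 291, 268 and 219 in cultured RhoA-KO cells, against 587, 561 and 831 in wildtype cells (259 ± 36.7 and 660 ± 149, SD, n = 3 each), a ratio of 0.396 (log2 change -1.34, SE 0.19, limma adjusted p = 0.0822). The highest RhoA-KO array was far below the lowest wildtype array. In fresh cells Sema5a read 215 and 243 in RhoA-KO, against 326 and 465 in wildtype (log2 change -0.77, SE 0.20, limma adjusted p = 0.303), and its change ranged from -1.02 without wildtype replicate 1 to -0.51 without wildtype replicate 2, with -0.86 without RhoA-KO replicate 2 (limma adjusted p of 0.155 to 0.985 over its alternatives). Averaged over its probe sets the fresh change was -0.35. A second probe set gave 120.3, 125 and 64.8 in cultured RhoA-KO, against 376, 282 and 400.4 in wildtype (log2 change -1.81, limma adjusted p = 0.0979), and -0.54 in fresh cells. With each array centred on its 75th percentile Sema5a passed the threshold in cultured cells (log2 change -1.32, limma adjusted p = 0.0496), and it did so with array weights (limma adjusted p = 0.0370) and in 1 fit over all 10 arrays (limma adjusted p = 0.0189), within 0.0189 to 0.274 over its alternatives.

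**Figure D3:**
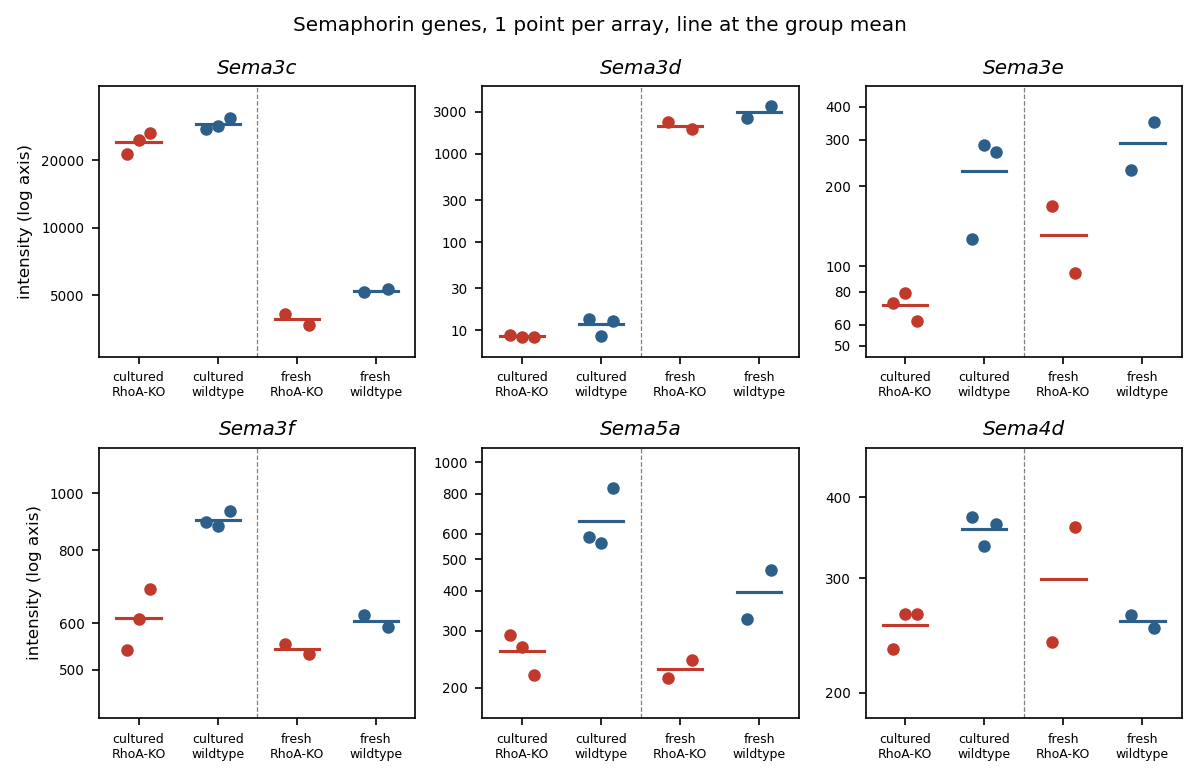
Intensity of 6 semaphorin genes (y axes, log scale, each panel its own range) on every array, with RhoA-KO in red left of wildtype in blue and cultured arrays left of fresh arrays; lines mark group means. Sema3c, Sema3e, Sema3f and Sema5a show RhoA-KO points below all wildtype points in both conditions, Sema3d in fresh cells, and Sema4d in cultured cells.

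Sema3c, Sema3d, Sema3e and Sema5a were lower in RhoA-KO cells at an unadjusted p under 0.05 in both conditions. These 4 of 29 members tested in both (13.8%) compare with 1.4% of the 9801 genes tested in both, and make up 50% of the 8 lower in culture and 57.1% of the 7 lower in fresh cells. The 2 comparisons share no arrays. Sema3d was near the floor in culture, with overlapping groups. It dropped out with an offset of 16, with quantile normalization, with no trend and in 1 fit over 10 arrays, which left Sema3c, Sema3e and Sema5a. Without 1 cultured array the count was 2 (Sema3e and Sema5a, without wildtype replicate 3 or RhoA-KO replicate 2) or 3, and without 1 fresh array it was 1 (Sema3c, without wildtype replicate 2), 3 (without RhoA-KO replicate 2) or 4. The direction of the change was the same in both conditions for 14 of the 29 members (48.3%), near the 50.4% of all genes. Sema3d, Sema3e and Sema3c lie near each other on chromosome 5, as the 69th, 74th and 90th protein-coding genes of its annotation, with Sema3a as the 70th.

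**Figure D4:**
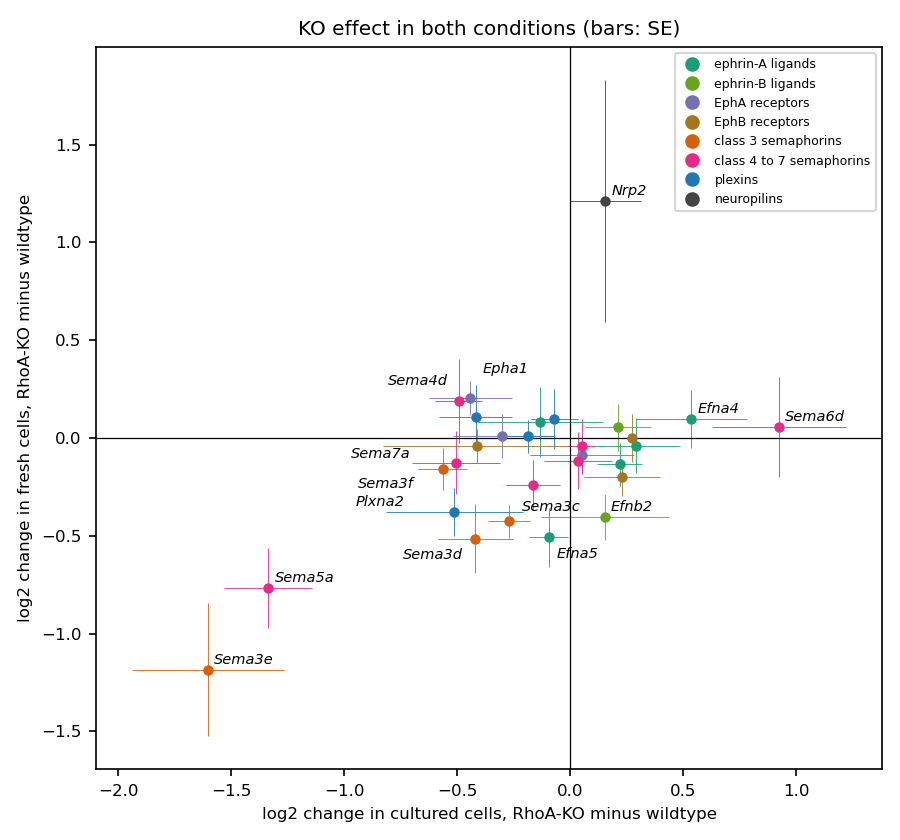
Log2 change in cultured cells (x axis) against log2 change in fresh cells (y axis), RhoA-KO minus wildtype, for the 29 members tested in both, with standard errors as bars and colour by family. Sema3e and Sema5a stand alone at the lower left, Sema3c and Sema3d lie nearer the centre on the same side of both axes, and Nrp2 stands at the top with a long vertical bar.

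The start regions of these 4 genes are shown because they are the members lower in both conditions. Each is the stretch from 250 bases before to 50 bases after the annotated start in RefSeq (GRCm38.p6), written 5′ to 3′ along the gene, with matches to the searched motifs in capitals.
Sema3c, chr5:17574566-17574865, plus strand: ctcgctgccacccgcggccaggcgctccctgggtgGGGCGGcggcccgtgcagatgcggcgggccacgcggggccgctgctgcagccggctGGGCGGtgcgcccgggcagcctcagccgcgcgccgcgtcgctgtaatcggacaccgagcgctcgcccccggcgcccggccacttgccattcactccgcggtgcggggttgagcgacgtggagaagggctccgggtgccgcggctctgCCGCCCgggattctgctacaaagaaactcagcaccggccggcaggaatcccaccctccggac
Sema3d, chr5:12382916-12383215, plus strand: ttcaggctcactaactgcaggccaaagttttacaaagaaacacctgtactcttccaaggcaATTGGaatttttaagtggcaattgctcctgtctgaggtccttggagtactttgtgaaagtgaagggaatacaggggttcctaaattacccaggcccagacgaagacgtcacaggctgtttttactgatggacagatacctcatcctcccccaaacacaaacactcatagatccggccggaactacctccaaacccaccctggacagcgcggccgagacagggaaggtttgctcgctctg
Sema3e, chr5:14025026-14025325, plus strand: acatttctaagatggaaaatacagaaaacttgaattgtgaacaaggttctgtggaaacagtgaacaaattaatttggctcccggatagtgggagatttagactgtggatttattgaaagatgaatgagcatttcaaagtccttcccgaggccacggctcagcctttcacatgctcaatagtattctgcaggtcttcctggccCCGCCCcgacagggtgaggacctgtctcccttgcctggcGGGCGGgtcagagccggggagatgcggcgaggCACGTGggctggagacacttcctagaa
Sema5a, chr15:32244563-32244862, plus strand: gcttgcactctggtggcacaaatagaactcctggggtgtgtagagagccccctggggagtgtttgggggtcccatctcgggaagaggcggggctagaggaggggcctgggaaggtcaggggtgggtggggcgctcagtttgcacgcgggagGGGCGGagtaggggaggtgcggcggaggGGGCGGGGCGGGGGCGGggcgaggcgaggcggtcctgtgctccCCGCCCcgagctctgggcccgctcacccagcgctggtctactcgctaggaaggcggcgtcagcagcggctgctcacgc

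Both strands were searched for 7 motifs. The capitals in Sema3c are 3 GC boxes, those in Sema3d 1 CCAAT box, those in Sema3e 2 GC boxes and 1 E-box, and those in Sema5a 5 GC boxes, of which neighbours overlap. GC boxes (GGGCGG) are frequent in such windows: they occur in 46 of the 60 promoters (76.7%) found for 46 of the members and in 35.7% of 32851 mouse promoters. The CCAAT box, searched as those letters, occurs in 31.7% of the members' promoters and 37.4% of all. For the E-box (CACGTG) the shares were 6.67% of the members' promoters and 7.15% of all promoters. The TATA box, searched as TATAAA, was found in 1.67% of the members' promoters and 13.6% of all. The core of TEAD sites (GGAATG), which YAP partners bind, was found in 11.7% and 14.7%. An AP-1 site, written TGANTCA, was found in 5% and 7.81%. The CArG box of serum response factor, found in 1.63% of all promoters, occurs in 1 promoter of a member (1.67%), 1 of the 3 of Sema4d, 231 bases before the start. The GC content was 75.7% for Sema3c, 49.7% for Sema3d, 50.7% for Sema3e and 71.3% for Sema5a. A match is a description of the letters and not a binding site.

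Sema4d, a membrane-bound semaphorin that binds plexin-B1, read 234, 264 and 265 in cultured RhoA-KO cells, against 373, 336 and 364 in wildtype cells (254 ± 17.7 and 358 ± 19.0, SD, n = 3 each; log2 change -0.49, SE 0.10, limma adjusted p = 0.131). The groups were well separated. In fresh cells it read 239.7 and 359.6 in RhoA-KO, against 264 and 252 in wildtype (log2 change 0.19, SE 0.21, limma adjusted p = 0.739), and the change turned to -0.10 without RhoA-KO replicate 2. The high value was on that array, the one with the high hair follicle sum, whose part in it was not tested. Its other probe sets were at log2 changes of -0.87 (limma adjusted p = 0.555) and -0.0023 in cultured cells.

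Plxnb1, the receptor gene of that ligand, read 195, 257 and 212 in cultured RhoA-KO cells, against 336, 255 and 296 in wildtype cells (log2 change -0.42, SE 0.16, limma adjusted p = 0.298), so that the groups overlapped at RhoA-KO replicate 2 and wildtype replicate 2. In fresh cells it read 711 and 897 in RhoA-KO, against 821 and 671 in wildtype (log2 change 0.11, limma adjusted p = 0.818), and the change turned to -0.06 without RhoA-KO replicate 2. A second probe set of the gene was at -0.15 in cultured cells (limma adjusted p = 0.596) and 0.23 in fresh cells (limma adjusted p = 0.586), with overlapping groups in both.

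Sema6d, a transmembrane ligand of plexin-A1, was the only semaphorin higher in cultured RhoA-KO cells at an unadjusted p under 0.05. It read 29.4, 56.0 and 59.9 in RhoA-KO, against 29.2, 22.2 and 22.3 in wildtype (log2 change 0.92, SE 0.30, limma adjusted p = 0.240), with RhoA-KO replicate 1 next to wildtype replicate 1. Fresh cells gave 298 and 252 in RhoA-KO, against 337 and 207 in wildtype (log2 change 0.06, limma adjusted p = 0.943). Sema7a, whose product has a lipid anchor and binds integrins and plexin-C1, was near the floor in cultured cells, at 11.8, 9.47 and 11.7 in RhoA-KO, against 12.05, 19.7 and 15.7 in wildtype (log2 change -0.50, limma adjusted p = 0.298). Sema4c read 711 and 652 in fresh RhoA-KO cells, against 596 and 512 in wildtype cells (log2 change 0.30, SE 0.13, limma adjusted p = 0.407), without overlap. The remaining tested genes of classes 4 to 7 had log2 changes between -0.24 (Sema4b in fresh cells) and 0.05.

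Among the plexins, the receptors, Plxna2 was lower on all 4 of its probe sets in both conditions. Its representative read 463 and 417 in fresh RhoA-KO cells, against 597 and 547 in wildtype cells (439.9 ± 33.0 and 572 ± 34.8, SD, n = 2 each; log2 change -0.38, SE 0.12, limma adjusted p = 0.333), without overlap. In cultured cells it read 134, 146 and 74.6 in RhoA-KO, against 165, 131 and 197 in wildtype (log2 change -0.51, SE 0.30, limma adjusted p = 0.464), where the groups overlapped. Another of its cultured probe sets had a log2 change of -0.90 without overlap (limma adjusted p = 0.175).

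Plxnb2, the plexin-B2 gene, lay at the 89.1st percentile or above on every array. It read 1776, 1895 and 1802 in cultured RhoA-KO cells, against 2380.0, 1772 and 2114 in wildtype cells (log2 change -0.19, limma adjusted p = 0.493), and 2037 and 2136 in fresh RhoA-KO cells, against 2054 and 2094 in wildtype cells (log2 change 0.01, SE 0.08, limma adjusted p = 0.977). Plxna1 read 1109.6, 1281 and 1306 in cultured RhoA-KO cells, against 1341, 1165 and 1375 in wildtype cells (log2 change -0.07, limma adjusted p = 0.784). Of the 5 plexins tested in culture 4 were lower and 1 higher in RhoA-KO, and of the 8 tested in fresh cells 3 were lower and 5 higher. Those 5 all turned to lower without fresh RhoA-KO replicate 2, while Plxnc1 turned to higher. Plxnd1, the receptor gene for Sema3e, read 65.4 and 77.1 in fresh RhoA-KO cells, against 68.0 and 69.3 in wildtype cells, and was near the floor in culture, at 4.86 to 4.94 on all 6 arrays.

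The neuropilin genes encode co-receptors of class 3 semaphorins. Nrp1 read 342, 211 and 281 in cultured RhoA-KO cells, against 77.6, 155 and 238 in wildtype cells (278 ± 65.4 and 157 ± 80.3, SD, n = 3 each; log2 change 0.94, SE 0.43, limma adjusted p = 0.359). Its change was 0.51 without wildtype replicate 1, 1.32 without wildtype replicate 3 and 0.55 with array weights. The groups overlapped, and all 3 tested probe sets of the gene were higher in RhoA-KO, at 0.45 to 0.94. Nrp2 read 353, 343 and 288 in cultured RhoA-KO cells, against 321, 245 and 321 in wildtype cells (log2 change 0.16, limma adjusted p = 0.663).

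In fresh cells Nrp2 read 66.2 and 259.9 in RhoA-KO, against 53.8 and 59.6 in wildtype (log2 change 1.21, SE 0.62, limma adjusted p = 0.470). The high value came from RhoA-KO replicate 2 alone, and without that array the gene did not pass the filter. On the same array 16 of the 19 hair follicle markers were at their highest in fresh cells, 8 melanocyte markers summed to 5057, against 1578 on RhoA-KO replicate 1 and 1287 to 1382 in wildtype, and all 9 Langerhans cell and myeloid markers were at their lowest. Their part in the reading was not tested. Endothelial markers, which could accompany neuropilins, summed to 190 to 198 in fresh RhoA-KO cells and 187 to 202 in fresh wildtype cells, and to 27.2 to 27.6 in cultured RhoA-KO cells and 27.4 to 28.8 in cultured wildtype cells, near the floor. None of these 6 markers passed the filter in either condition, so their sums cannot show whether endothelial content differed.

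The ephrins, ligands of the Eph receptors, showed no common direction. Of 7 tested in cultured cells 5 were higher in RhoA-KO and 2 lower, and of 8 tested in fresh cells 4 were higher and 4 lower. Efna5 read 951 and 729 in fresh RhoA-KO cells, against 1190.2 and 1177 in wildtype cells (839.9 ± 157 and 1183 ± 9.46, SD, n = 2 each; log2 change -0.51, SE 0.15, limma adjusted p = 0.317). The lower value was on RhoA-KO replicate 2. The change was -0.32 without that array (limma adjusted p = 0.416) and -0.70 without replicate 1 (limma adjusted p = 0.0355), within adjusted p of 0.0355 to 0.985 over its alternatives. In cultured cells Efna5 read 701, 685 and 712 in RhoA-KO, against 695, 743 and 806 in wildtype (log2 change -0.10, limma adjusted p = 0.628).

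Efnb2, an ephrin that marks arterial vessels and is also made by keratinocytes, read 1713 and 1868 in fresh RhoA-KO cells, against 2169 and 2581 in fresh wildtype cells (log2 change -0.40, SE 0.12, limma adjusted p = 0.317). The groups did not overlap, all 4 of its probe sets were lower in fresh RhoA-KO cells, and the change was -0.47 without RhoA-KO replicate 2. In cultured cells it read 1158, 815 and 940.4 in RhoA-KO, against 1305, 671 and 738 in wildtype (log2 change 0.15, SE 0.28, limma adjusted p = 0.837), a wide overlap. Efna1 read 561, 643 and 593 in cultured RhoA-KO cells, against 474, 532 and 537 in wildtype cells (log2 change 0.22, SE 0.10, limma adjusted p = 0.352), without overlap, and 2154 and 1821 in fresh RhoA-KO cells, against 2225 and 2125 in wildtype cells (log2 change -0.14, limma adjusted p = 0.637). Efna4 was at a log2 change of 0.54 in cultured cells, with overlapping groups (limma adjusted p = 0.359).

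Of the Eph receptors, Epha1, the gene after which the family is named, pointed in opposite directions in the 2 conditions. It read 443, 480.3 and 459 in cultured RhoA-KO cells, against 776, 482 and 656 in wildtype cells (461 ± 18.7 and 638 ± 148, SD, n = 3 each; log2 change -0.44, SE 0.18, limma adjusted p = 0.326). Wildtype replicate 2 lay next to the RhoA-KO arrays. In fresh cells Epha1 read 1689.9 and 1633 in RhoA-KO, against 1454 and 1431 in wildtype (log2 change 0.20, SE 0.09, limma adjusted p = 0.406), also without overlap but in the other direction.

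Ephb1 was at the floor in culture, at 4.85 to 4.96 on all 6 arrays. In fresh cells it read 159.7 and 184 in RhoA-KO, against 127 and 116 in wildtype (172 ± 17.3 and 121 ± 7.75, SD, n = 2 each; log2 change 0.50, SE 0.15, limma adjusted p = 0.317), with both RhoA-KO arrays above both wildtype arrays. A fit over all 10 arrays gave limma adjusted p = 0.0294 (within 0.0294 to 0.985 over its alternatives), but that fit takes part of its error from the cultured readings at the floor, so it is no test of the fresh values. Ephb3 read 852 and 844 in fresh RhoA-KO cells, against 965 and 983 in wildtype cells (log2 change -0.20, SE 0.09, limma adjusted p = 0.445).

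Epha2, the main keratinocyte EphA receptor, read 1485, 1336 and 1412 in cultured RhoA-KO cells, against 1964, 1155 and 1107 in wildtype cells (log2 change 0.05, SE 0.23, limma adjusted p = 0.945), and 1358 and 1508 in fresh RhoA-KO cells, against 1523 and 1512 in wildtype cells (log2 change -0.08, limma adjusted p = 0.741). Epha4 read 1478, 1047 and 1366 in cultured RhoA-KO cells, against 1959, 1199.9 and 1678 in wildtype cells (log2 change -0.30, limma adjusted p = 0.557), and its 5 probe sets went both ways. Ephb6, whose product lacks kinase activity, stood at the 94.3rd to 94.8th percentile of the fresh arrays, at 1846 and 1841 in RhoA-KO, against 1840.1 and 1955 in wildtype (log2 change -0.04, SE 0.08, limma adjusted p = 0.866). In culture 5 of its 6 readings were between 40.9 and 47.8, and wildtype replicate 1 stood out at 118.

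**Figure D5:**
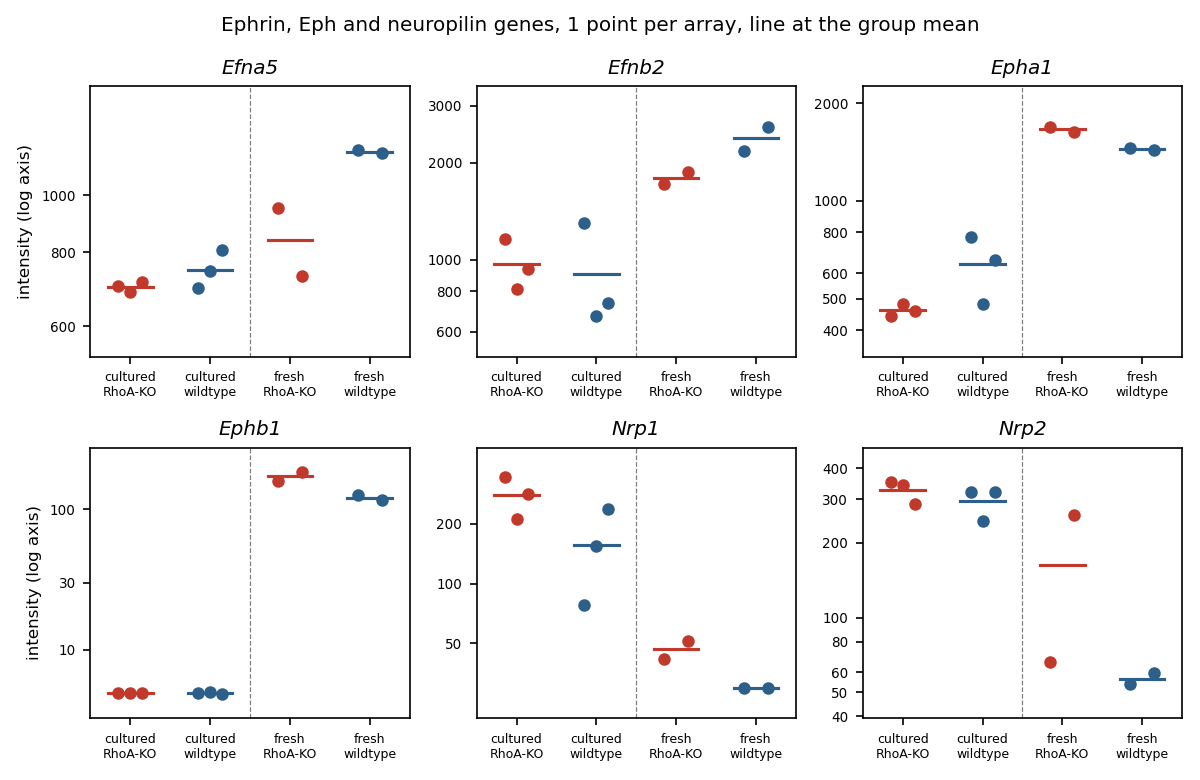
Intensity of 6 ephrin, Eph and neuropilin genes (y axes, log scale, each panel its own range) on every array, with RhoA-KO in red left of wildtype in blue and cultured arrays left of fresh arrays; lines mark group means. Efna5 and Efnb2 are lower and Ephb1 and Epha1 higher in fresh RhoA-KO cells without overlap, and the fresh RhoA-KO mean of Nrp2 is carried by 1 point at 259.9.

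Whether the RhoA-KO effect differed between cultured and fresh cells was tested per gene, as the cultured log2 change minus the fresh one. No member passed (0 of 29, against 2.37% of all genes, by the combined limma errors), and 8 of 29 (27.6%) had an unadjusted p under 0.05, against 20.9% of all genes. Epha1 had the smallest p, with a difference of -0.65 (SE 0.20, adjusted p = 0.122 from both limma fits), and passed without cultured wildtype replicate 2 (-0.83, limma adjusted p = 0.0241, within 0.0241 to 0.348 over its alternatives). Sema4d followed, with -0.68 (SE 0.24, limma adjusted p = 0.158), which was -0.39 without fresh RhoA-KO replicate 2 and -0.97 without replicate 1 (limma adjusted p = 0.0082, within 0.0082 to 0.518 over its alternatives). Sema3f differed by -0.40 (limma adjusted p = 0.187), Plxnb1 by -0.52 (0.250), Efna1 by 0.35 (0.227) and Efna5 by 0.41 (0.228). For Sema3e the difference was -0.42 (SE 0.48, limma adjusted p = 0.672) and for Sema5a -0.57 (SE 0.28, limma adjusted p = 0.301). Of the probe sets that do not represent their gene, a second one of Sema5a came nearest to the threshold, at limma adjusted p = 0.0696. One of Efnb1 was at limma adjusted p = 0.107, also below the value of Epha1.

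Some marker genes of other cell types and layers also moved with genotype. The 7 suprabasal keratinocyte markers summed to 4923 to 8643 in cultured RhoA-KO cells and 1712 to 1794 in cultured wildtype cells, 7 of 7 higher in RhoA-KO, and 2 of them, Ivl and Dsc1, passed the threshold. The sums of 8 fibroblast markers were 226 to 416 in RhoA-KO and 99.5 to 140 in wildtype, with the collagen genes Col1a1, Col1a2 and Col3a1 near the floor on all 6 arrays. Only 3 of the 8 passed the filter in culture, all 3 higher in RhoA-KO, while wildtype replicate 2 had the highest reading for 5 of the 8. These sums too are no shift of the whole list. Nerve and Schwann cell markers, 5 genes, summed to 749 to 1278 in cultured RhoA-KO and 586 to 660 in cultured wildtype cells. Only 1 of the 5 passed the filter there, at a log2 change of 0.71, and wildtype replicate 2 had the highest reading for 4 of them. The sums are therefore no shift of the whole list. Of the 8 melanocyte markers 5 were tested in culture, with a median log2 change of 1.29 and 3 higher at an unadjusted p under 0.05, and their sums overlapped, at 569 to 1461 in RhoA-KO and 402 to 621 in wildtype. The 9 Langerhans cell and myeloid markers summed to 104 to 129 in cultured RhoA-KO and 67.8 to 73.0 in cultured wildtype cells. Of the 2 of them tested there 1, Cd68, a macrophage marker, was higher at an unadjusted p under 0.05, and the other was lower without reaching it. Wildtype replicate 2 had the highest reading for 5 of the 9, so the list did not move as a whole. Cd207 and Cd74, which define Langerhans cells, were near the floor, at 3.39 to 4.64.

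In fresh cells those 9 markers summed to 15359 and 7329 in RhoA-KO, against 23237 and 18424 in wildtype, and were lower in RhoA-KO for 9 of 9. The 3 sebaceous gland markers on the array summed to 142 to 165 in fresh RhoA-KO and 305 to 376 in fresh wildtype cells. Only 1 of the 3 passed the filter there, at a log2 change of -1.96, and RhoA-KO replicate 1 had the highest reading for 2 of them. Fibroblast markers summed to 2250 to 2618 in fresh RhoA-KO and 1818 to 2061 in fresh wildtype cells, and the 7 basal keratinocyte markers to 91284 to 91518 and 92183 to 94887. The part of these shifts in the guidance gene values was not tested.

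Genes that act beside or below these receptors were looked at as 3 further lists, and no gene of any passed the threshold in either condition. Of 40 adaptors, kinases and effectors on the array, 35 were tested in each condition, with 5 higher (14.3%) and 3 lower (8.57%) at an unadjusted p under 0.05 in culture, against 8.05% and 9.73% of all genes. In fresh cells 1 was higher and 1 lower (2.86% each), against 7.64% and 7.75% of all genes. Grb10, which encodes an adaptor of receptor tyrosine kinases, averaged 354 ± 91.2 in cultured RhoA-KO cells and 909.8 ± 181 in wildtype cells (SD, n = 3 each; log2 change -1.37, SE 0.23, limma adjusted p = 0.0999). Rgs3, whose product carries ephrin-B signals to G proteins, was higher in RhoA-KO at a log2 change of 1.18 in culture (limma adjusted p = 0.178) and 0.48 in fresh cells (limma adjusted p = 0.356). Met, the receptor kinase gene that can pair with B-type plexins, was at -0.49 in fresh cells (limma adjusted p = 0.289).

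Of the netrin and of the Slit and Robo genes none had an unadjusted p under 0.05 in culture, and in fresh cells 1 of 7 (14.3%) and 2 of 7 (28.6%) were lower by that measure, against 7.75% of all genes. Of the netrin ligands and receptors, 5 were tested in culture and 7 in fresh cells, and the fresh gene with an unadjusted p under 0.05 was Ntn4, at 419 ± 22.2 in fresh RhoA-KO cells and 669.6 ± 179.7 in wildtype cells (SD, n = 2 each; log2 change -0.65, limma adjusted p = 0.327). Of the Slit and Robo genes, 4 and 7 were tested, and in fresh cells Srgap2, a Robo-binding GTPase activator, and Robo1, the Slit receptor, were lower at -0.44 and -0.45 (limma adjusted p = 0.317 and 0.323). The median log2 change was -0.10 and 0.04 for the netrin list in cultured and fresh cells, -0.08 and -0.07 for Slit and Robo, and 0.05 and 0.04 for the adaptors and effectors.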

How the data were processed

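Total RNA of 10 samples was hybridised to Affymetrix Mouse Genome 430 2.0 arrays. The authors deposited 1 linear intensity per probe set and array. MAS5 is named as the program by the submitters' processing notes, with its settings not given in the sources used here. Probe sets were named from the platform annotation, with symbols updated through a RefSeq gene table (GRCm38.p6), which also gave the start regions. For the tests the deposited intensities were put on the log2 scale, no offset being added, and probe sets above the array median on at least 2 arrays of a condition were tested with limma 3.58.1 in R 4.3.3 (lmFit, eBayes with trend, 2-sided), RhoA-KO against wildtype within each condition, Benjamini-Hochberg adjusted at 0.05 over all probe sets tested. Difference tests combined both fits' moderated errors, and percentages over all genes used representative probe sets. The procedure was tested on simulated data. Members, lists and tests were chosen with earlier results of these data known.

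Per-array values are given for the 12 members with the smallest p and the 6 with the highest level in each condition and the 6 with the smallest p of the difference. Genes named from the further lists that hold no cell type markers are among the 4 with the smallest p of their list in a condition. Not all of those 4 are named, and they are given as group means or log2 changes. Other genes named were chosen after their values were seen. The results of 1 further list are not reported here. Alternatives changed the filter, trend, normalization, offset, array weights, probe set summary, joint fit, replicate block and arrays included. The few arrays limit the precision.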

Additional observations from a re-analysis of the deposited data

How the results depend on the processing

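No change with an unadjusted p under 0.05 reversed under an alternative run. Efna2, Efna3, Efnb1, Plxna3, Plxnc1 and Plxnd1 turned in fresh cells without RhoA-KO replicate 2, as given above. Of the other changes of members picked by their p or level, 13 reversed. With probe sets averaged these were Epha4 (0.0426 in cultured, -0.147 in fresh cells) and Plxna1 in culture (0.0266). With 1 array left out, the cultured change ranged from -0.14 to 0.0029 for Plxna1, -0.68 to 0.0839 for Ephb6, -0.0300 to 0.45 for Efnb2 and -0.10 to 0.32 for Epha2. In fresh cells it ranged from -0.0137 to 0.0372 for Epha4, -0.30 to 0.41 for Sema6d, -0.28 to 0.0268 for Sema7a, -0.08 to 0.27 for Plxna1, -0.0613 to 0.27 for Plxnb1, -0.0264 to 0.0423 for Plxnb2, -0.10 to 0.48 for Sema4d and -0.0845 to 0.0028 for Ephb6. Members called in culture were 0 except 1 (Sema5a) with 75th percentile centring, 2 (Sema3e, Sema5a) with array weights and 2 (Sema3f, Sema5a) in 1 fit over 10 arrays, which also called 1 in fresh cells (Ephb1, at the floor in culture). Leaving out 1 array gave 0 to 1 calls in culture (Sema3e, without wildtype replicate 1), 0 to 3 in fresh cells (Efna5, Sema3c and Sema3e, without RhoA-KO replicate 1) and 0 to 2 for the difference (Efna5 and Sema4d, without fresh RhoA-KO replicate 1, and Epha1 alone, 1 call, without cultured wildtype replicate 2). An arm left with 1 fresh array is assumed to vary like the other. The cultured median log2 change of -0.10 was -0.0035 with no filter and -0.0027 in 1 fit over 10 arrays, which test more genes near the floor, and -0.14 to -0.04 with 1 array left out. The fresh median of -0.04 was -0.0769 (without RhoA-KO replicate 2) to -0.0137 with 1 array left out. The 4 members lower in both conditions at an unadjusted p under 0.05 were 3 or 4 under the other alternatives; with a gene's probe sets averaged they were Plxna2, Sema3e and Sema5a, and 5 and 3 members, in place of 8 and 7, were lower in culture and in fresh cells.

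Over all probe sets, limma called 62 in culture, 0 in fresh cells (2953 at an unadjusted p under 0.05) and 367 for the difference. The cultured count was 2 with no filter, 7 with no trend, 128 with 75th percentile centring, 299 with array weights, 395 in 1 fit over 10 arrays (which gave 393 in fresh cells) and 0 to 95 with 1 array left out. With 1 array left out the fresh count was 0 to 945 and that of the difference 28 to 1613, and the difference gave 700 with array weights. With probe sets averaged 38 genes or probe sets without a single symbol were called in culture and 218 for the difference. The replicate block gave 17, 0 and 555 calls, with 0 members among them, the smallest member adjusted p in culture 0.125 and the medians -0.10 and -0.04. Arrays with the same number correlated in their deviations at 0.32, 0.081 and 0.25 in culture and at -0.055 in fresh cells, and not every array correlated best with its own number, so the numbers were not used as pairs. With 2 or 3 arrays a group, and cultured values near the floor for 4 tested members (mean under 20), small changes could not be seen.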
